A study of Mus musculus with 12 samples.

Results

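Glycolysis, lactate handling and the hypoxia response of mouse regulatory T cells (Treg) were followed through a list of 31 genes. The list was given by name and holds glucose transporters, the enzymes from hexokinase to lactate dehydrogenase, lactate transporters, pyruvate dehydrogenase kinases, and genes of oxygen sensing with Txnip. All 31 were found in both deposited tables, which hold 16232 genes from Treg in vivo, by Entrez number, and 24421 genes from Treg in vitro, by symbol. Polyadenylated RNA was sequenced in 12 libraries, 2 in each of 6 groups: Kdm2b conditional knockout (cKO) and wild-type (WT) Treg in vivo, stimulated cKO and WT Treg in vitro, and unstimulated cKO and WT Treg in vitro. Spleen and lymph nodes are the labelled tissue, and Kdm2b encodes a histone H3 lysine demethylase and recruits the Polycomb complex PRC1.1 to CpG islands. Strain, age, the Cre driver, the stimulus and its duration are not given in the sources used here, nor whether the 2 libraries of a group came from separate mice or cultures, so that p-values measure only the spread between these libraries, which may be technical.

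Glycolysis turns glucose into pyruvate in the cytosol, and lactate dehydrogenase interconverts pyruvate and lactate, which monocarboxylate transporters carry across the membrane. Hypoxia-inducible factors switch on many genes of this pathway, and prolyl hydroxylases mark the alpha subunits of these factors for destruction when oxygen is present. T cells raise glycolysis when activated through their antigen receptor, whereas Foxp3, the transcription factor that defines Treg, is known to restrain it.

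The values are FPKM, fragments scaled to gene length and library size, which can be compared between genes. Library sums ranged over 461753 to 475374 in vivo and over 369720 to 438763 in culture; read depth is unknown, so no counting interval was computed. All 6 Treg markers checked (Foxp3, Il2ra, Ctla4, Ikzf2, Cd3e, Cd4) were above 1 FPKM in every library, with Foxp3 between 71.5 and 696 FPKM. Kdm2b, the targeted gene, stood at 146.5 and 125.4 FPKM in cKO and 112.6 and 110.4 FPKM in WT libraries in vivo, at 66.3 and 70.5 FPKM in stimulated cKO and 74.5 and 71.7 FPKM in stimulated WT libraries, and at 89.8 and 97.4 FPKM in unstimulated cKO and 84.9 and 94.9 FPKM in unstimulated WT libraries. These values cover the whole gene, in which the loss of some exons need not show, and so check no label. The WT libraries numbered 2 in vitro listed more genes at 0 (12379 unstimulated, 13273 stimulated) than the other 6 in vitro libraries (9102 to 9857). Haemoglobin genes took 1.33% to 11.6% of the FPKM of the cKO and 0.00678% to 0.548% of the WT libraries in vitro.

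Gapdh, which oxidises glyceraldehyde 3-phosphate, was the most abundant in every group, at 1090 FPKM in cKO and 1172 FPKM in WT Treg in vivo (group means). Pkm, the last glycolytic kinase, followed in vivo with 395 FPKM in cKO and 428 FPKM in WT, then Txnip with 332 FPKM in cKO and 351 FPKM in WT. In unstimulated culture Txnip stood above Pkm, at 402 FPKM against 298 FPKM in cKO and 465 FPKM against 302 FPKM in WT. Aldoc, a minor aldolase, was the least abundant, at 1.24 and 2.50 FPKM in cKO and 1.56 and 1.73 FPKM in WT libraries in vivo. In vitro Aldoc was listed at 1.41 and 0.875 FPKM in stimulated cKO, 0.713 and 0 FPKM in stimulated WT, 1.305 and 0.979 FPKM in unstimulated cKO and 1.245 and 0 FPKM in unstimulated WT libraries, which left it below the floor for testing, a mean of at least 1 FPKM over the libraries of a fit. The other 30 members were tested in vitro and all 31 in vivo. Ranges over the 8 culture libraries differed between genes. Pfkm ranged over 0.839 to 3.35 FPKM, Pfkfb4 over 0.684 to 5.13 FPKM and Hk2 over 1.89 to 10.1 FPKM. Hk1, the constitutive hexokinase, ranged over 29.9 to 36.7 FPKM, Gpi1, the phosphoglucose isomerase, over 99.7 to 149.6 FPKM, and Aldoa, the main aldolase, over 223.6 to 272.3 FPKM. Pgk1, the first ATP-forming kinase of the pathway, ranged over 89.0 to 124.5 FPKM, Pgam1 over 33.1 to 52.8 FPKM and Ldha over 196.1 to 305.5 FPKM. Egln1 and Egln3, which encode the HIF prolyl hydroxylases PHD2 and PHD3, ranged over 16.1 to 21.8 FPKM and 10.3 to 17.2 FPKM. The 14 glycolytic enzyme genes from the hexokinases to Pkm took 0.403% to 0.469% of the FPKM of an in vitro library. In vivo they together took 0.473% to 0.592%. The tables were normalized separately, so levels set across them are a description. These shares leave out Eno1b, a near-identical copy of Eno1, listed at 16.3 to 50.5 FPKM in culture and at most 0.59 FPKM in vivo. Haemoglobin, at up to 11.6% of a culture library, lowers the shares there as well.

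The first comparison asks how the pathway responds when cultured Treg are stimulated. Hif1a, the oxygen-regulated alpha subunit of hypoxia-inducible factor 1, rose in both genotypes, while Txnip, which binds thioredoxin and restrains glucose uptake, and Slc16a3, the lactate exporter MCT4, fell in both. Eno1, the enolase of most tissues, rose in cKO cells. Apart from Eno1 in cKO, no enzyme from hexokinase to lactate dehydrogenase passed the test in either genotype. In all, 4 of 30 members were called in cKO cells, 2 higher and 2 lower, and 3 of 30 in WT cells, 1 higher and 2 lower. Over all 10710 genes tested, 4.58% were called in cKO and 2.43% in WT. By direction, the share of all genes called was 2.08% higher and 2.49% lower in cKO and 1.61% higher and 0.822% lower in WT. Limma was run on log2(FPKM + 1), the scale of every fold change here, and a gene was called at a p under 0.05 after Benjamini-Hochberg adjustment over the whole table.

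Hif1a (chromosome 12, 73901324 to 73947554, GRCm38) was at 229.6 and 237.2 FPKM in stimulated and 99.8 and 83.0 FPKM in unstimulated cKO libraries. In WT it was at 231 and 217 FPKM stimulated and at 79.8 and 102.9 FPKM unstimulated. Both stimulated pairs lay above every unstimulated library, with a log2 fold change of 1.35 in cKO (SE 0.16, limma adjusted p = 0.00725) and 1.30 in WT (SE 0.16, adjusted p = 0.00913).

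Txnip (chromosome 3, 96557957 to 96561857) was at 107.4 and 88.8 FPKM in stimulated and 427.4 and 375.7 FPKM in unstimulated cKO libraries, and at 108.3 and 152.7 FPKM in stimulated and 562.5 and 367.6 FPKM in unstimulated WT libraries. All 4 stimulated libraries lay below all 4 unstimulated ones. Its log2 fold change was the lowest of the members in both genotypes, -2.03 in cKO (SE 0.24, limma adjusted p = 0.00725) and -1.81 in WT (SE 0.24, adjusted p = 0.0115).

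Slc16a3 (chromosome 11, 120948484 to 120959000) was at 19.6 and 17.5 FPKM in stimulated and 52.3 and 47.4 FPKM in unstimulated cKO libraries, and at 17.8 and 14.7 FPKM in stimulated and 46.7 and 29.7 FPKM in unstimulated WT libraries. The groups did not overlap in either genotype (log2 fold change -1.38 in cKO, SE 0.22, adjusted p = 0.0193; -1.15 in WT, SE 0.22, limma adjusted p = 0.0441). Slc16a1, which encodes MCT1, the other lactate transporter of the list, was higher without passing, at 19.7 and 19.8 FPKM in stimulated and 12.3 and 15.1 FPKM in unstimulated cKO libraries (log2 fold change 0.51, adjusted p = 0.173), and at 18.2 and 23.98 FPKM in stimulated and 13.1 and 13.5 FPKM in unstimulated WT libraries (0.62, adjusted p = 0.139).

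Eno1 (chromosome 4, 150236708 to 150248879) was at 208.8 and 184.6 FPKM in stimulated and 120.0 and 104.7 FPKM in unstimulated cKO libraries, with a log2 fold change of 0.80 (SE 0.16, limma adjusted p = 0.0353). In WT it was at 165.8 and 206.0 FPKM stimulated and 133.1 and 124.0 FPKM unstimulated, again without overlap, but did not pass (0.52, adjusted p = 0.135). Reads of Eno1 can be shared with its near-identical copy Eno1b, listed at 50.5 and 45.0 FPKM in stimulated and 31.4 and 26.3 FPKM in unstimulated cKO libraries. The sum of both was 259.2 and 229.6 FPKM in stimulated and 151.4 and 131.0 FPKM in unstimulated cKO libraries, and 202.5 and 237.0 FPKM in stimulated and 164.3 and 140.3 FPKM in unstimulated WT libraries.

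Members that did not pass are given as values. Of the glucose transporters, Slc2a1 (GLUT1) had 22.5 and 24.2 FPKM in stimulated and 16.0 and 16.4 FPKM in unstimulated cKO libraries (log2 fold change 0.50, adjusted p = 0.235), and 28.8 and 42.7 FPKM in stimulated and 19.6 and 25.3 FPKM in unstimulated WT libraries (0.64, adjusted p = 0.174). Slc2a3 (GLUT3) lay on the other side, at 9.89 and 11.7 FPKM in stimulated and 14.8 and 16.0 FPKM in unstimulated cKO libraries (-0.48, adjusted p = 0.16), and 11.7 and 10.7 FPKM in stimulated and 16.0 and 16.7 FPKM in unstimulated WT libraries (-0.51, adjusted p = 0.169). In neither gene did the stimulated and unstimulated libraries of a genotype overlap.

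Hk2, a hexokinase inducible in many tissues, was at 10.1 and 7.94 FPKM in stimulated and 3.54 and 2.90 FPKM in unstimulated cKO libraries (log2 fold change 1.24, limma adjusted p = 0.0734). In WT it was at 6.56 and 5.65 FPKM in stimulated and 1.89 and 4.32 FPKM in unstimulated libraries (0.86, limma adjusted p = 0.207). P4ha1, a collagen prolyl hydroxylase subunit and known hypoxia target, was at 20.1 and 26.6 FPKM in stimulated and 10.8 and 11.9 FPKM in unstimulated cKO libraries (0.97, adjusted p = 0.0507), and at 25.7 and 36.6 FPKM in stimulated and 16.5 and 18.9 FPKM in unstimulated WT libraries (0.76, adjusted p = 0.123). Both genes lay higher in every stimulated library of a genotype. Hk2 in cKO was called under 5 of 21 alternatives, among them quantile normalization (limma adjusted p = 0.0451). P4ha1 in cKO was close to the threshold, and limma called it under 10 of 21 alternatives (adjusted p = 0.0187 to 0.52), among them the replicate number as a block (0.0307), robust eBayes (0.0494) and median-of-ratios and quantile scaling (0.0434 and 0.035).

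The kinases of pyruvate dehydrogenase, which keep pyruvate out of the mitochondrial cycle, did not pass. Pdk1 was at 6.54 and 5.63 FPKM in stimulated and 8.59 and 7.74 FPKM in unstimulated cKO libraries (-0.37, adjusted p = 0.316), and at 5.83 and 6.21 FPKM in stimulated and 10.6 and 9.70 FPKM in unstimulated WT libraries (-0.67, adjusted p = 0.126), lower without overlap in both. Pdk3 was at 16.6 and 16.5 FPKM in stimulated and 22.2 and 15.4 FPKM in unstimulated cKO libraries, and at 16.9 and 10.4 FPKM in stimulated and 23.9 and 15.6 FPKM in unstimulated WT libraries, with overlap in both. Among the other hypoxia genes Vegfa, Egln1, Egln3 and Bnip3 none passed, with log2 fold changes between -0.35 for Vegfa and 0.24 for Bnip3 in cKO and between -0.63 for Bnip3 and 0.035 for Vegfa in WT.

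Without regard to the test, the stimulated libraries lay above the unstimulated ones for 8 of 30 members in cKO (20.7% of all genes) and 8 in WT (18.8%), and below for 12 in cKO (44.1%) and 7 in WT (22.9%). Those above in both genotypes were Slc2a1, Hk2, Pfkp, Eno1, Slc16a1, Hif1a and P4ha1, 7 of 30, against 11.2% of all genes tested. Those below in both were Slc2a3, Pfkfb4, Slc16a3, Pdk1, Egln1 and Txnip, 6 of 30, against 16.7% of all genes. Several of the most abundant enzymes lay near 0 in both. The log2 fold change was 0.085 in cKO and -0.036 in WT for Pkm, -0.15 and -0.24 for Gapdh, -0.13 and -0.036 for Aldoa, and 0.21 and -0.13 for Ldha, which makes lactate from pyruvate. The median member stood at -0.046 in cKO and -0.036 in WT, beside -0.14 and -0.044 for the median of all genes, so that a value within 0.13 of 0 has no firm direction under other scalings in cKO.

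**Figure D1:**
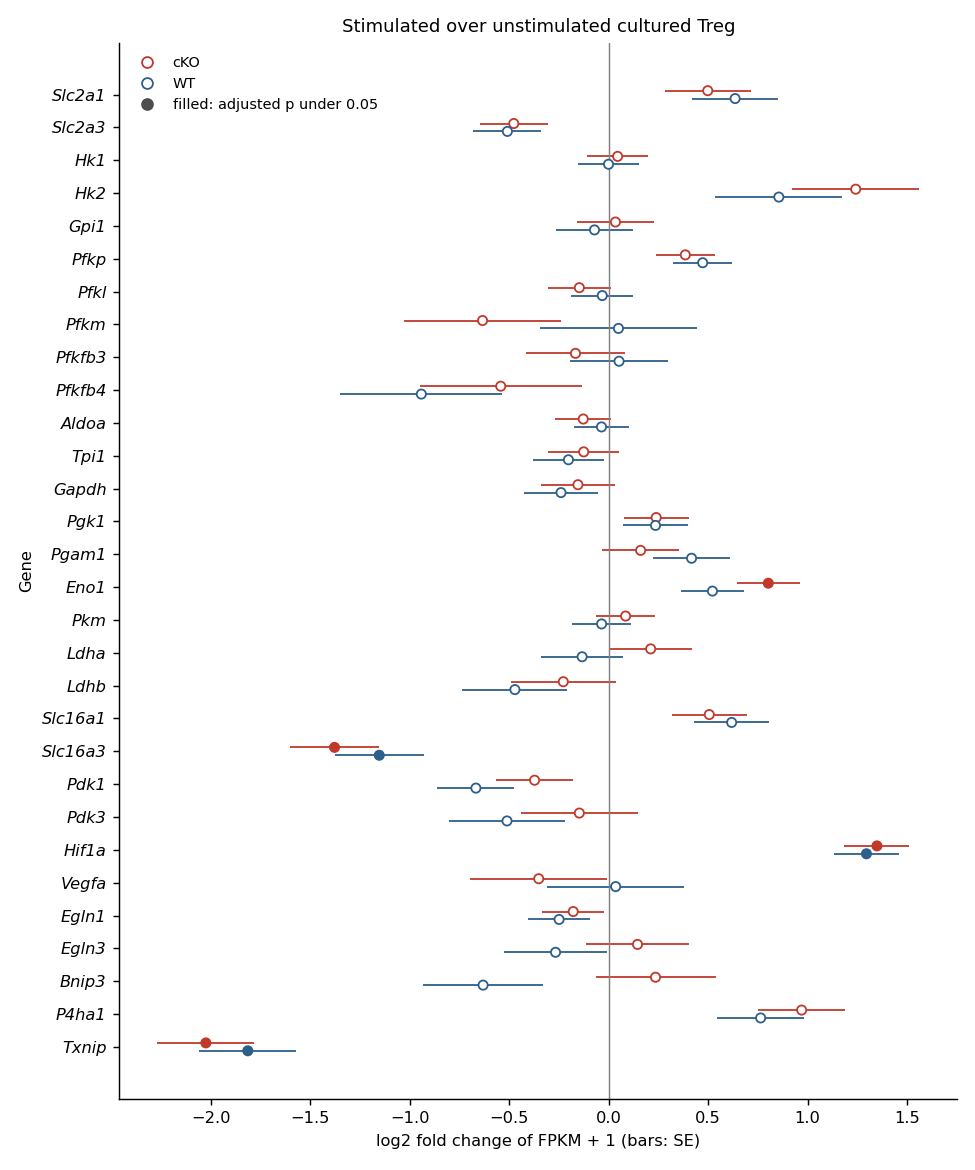
Log2 fold change of FPKM + 1, stimulated over unstimulated, for the 30 members tested in vitro, with cKO in red and WT in blue, bars giving the SE and filled points an adjusted p under 0.05. Hif1a is filled on the right and Txnip and Slc16a3 on the left in both genotypes, Eno1 is filled in cKO, and Pkm, Gapdh and Aldoa sit near 0.

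The calls in cKO and that of Slc16a3 in WT depended on single libraries. That of Eno1 in cKO held under 14 of 21 alternatives, and was also lost with no filter on low values and without an intensity trend. Hif1a and Txnip stayed called in WT when any 1 library was left out. Limma called 0 members in the cKO response without any 1 of unstimulated cKO replicate 2, stimulated cKO replicate 1 or stimulated cKO replicate 2, and 1, Hif1a, without unstimulated cKO replicate 1, while 6 were called in the WT response without stimulated WT replicate 1. The call of Slc16a3 in WT held under 10 of 21 alternatives and was lost under the others, with adjusted p between 0.0211 and 0.202, among them 6 of the 8 that left out 1 library, no filter on low values (0.116), a pseudocount of 0.1 (0.0511) and no intensity trend (0.0821). Fold changes moved less than the calls: over all alternatives that of Hif1a stayed between 1.218 and 1.503 in cKO and 1.12 and 1.52 in WT, that of Txnip between -2.16 and -1.89 and between -2.37 and -1.51, and that of Slc16a3 between -1.46 and -1.25 and between -1.47 and -0.84. Rescaling moved the median of all genes up by 0.105 to 0.13 in the cKO response and by at most 0.10 in WT. The calls over all genes in cKO, 223 higher and 267 lower, became 308 and 144 with median-of-ratios scaling, 331 and 200 with quantile normalization, 261 and 134 with a common sum and 268 and 177 with haemoglobin genes removed. Hif1a, Txnip and Slc16a3 kept their direction under each of these.

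Transcripts of other cell types were compared beside these results. Within cKO, the 10 B cell markers summed to 170.7 and 170.5 FPKM in stimulated and 201.1 and 220.7 FPKM in unstimulated libraries, and within WT to 53.6 and 37.8 FPKM in stimulated and 37.0 and 37.2 FPKM in unstimulated libraries. The 10 myeloid markers summed to 102.4 and 48.3 FPKM in stimulated and 163.6 and 47.2 FPKM in unstimulated cKO libraries, and to 12.7 and 10.8 FPKM in stimulated and 12.2 and 12.8 FPKM in unstimulated WT libraries. In cKO the 9 erythroid markers found summed to 41790 and 6930 FPKM in stimulated and 51220 and 5112 FPKM in unstimulated libraries. In WT they summed to 310.6 and 1693 FPKM in stimulated and 16.8 and 654 FPKM in unstimulated libraries. The part of these cell types in the response of the members was not tested. In bulk RNA fewer cells of a type cannot be told apart from less RNA per cell.

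The difference between the 2 responses was tested directly. Limma called 0 of 30 members in the interaction of genotype and stimulation, as it called 0 of 10710 genes (0.0%), and 0 members had an unadjusted p under 0.05, against 3.55% of all genes. The interaction was 0.053 for Hif1a (SE 0.23), -0.21 for Txnip (SE 0.35), -0.22 for Slc16a3 (SE 0.32) and 0.28 for Eno1 (SE 0.22) on the log2 scale, with an adjusted p of 0.999 each. So no difference between the genotypes was detected for Eno1, called in cKO and not in WT, and with no gene called in this test a difference of moderate size could have been missed. The furthest from 0 was Bnip3, a mitophagy receptor and hypoxia target, at 0.87 (SE 0.43, unadjusted p = 0.0772 in limma). It was at 4.55 and 4.59 FPKM in stimulated and 5.04 and 2.71 FPKM in unstimulated cKO libraries, and at 3.79 and 3.24 FPKM in stimulated and 7.17 and 4.96 FPKM in unstimulated WT libraries, so that the groups overlapped in cKO and not in WT.

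The start regions of the 4 called genes are shown because hypoxia-inducible factors bind a short core, ACGTG or GCGTG. Windows run from 250 bases before to 50 bases after an annotated start (RefSeq, GRCm38.p6), and capitals mark the cores on either strand.
Hif1a, chr12:73907617-73907916, plus strand: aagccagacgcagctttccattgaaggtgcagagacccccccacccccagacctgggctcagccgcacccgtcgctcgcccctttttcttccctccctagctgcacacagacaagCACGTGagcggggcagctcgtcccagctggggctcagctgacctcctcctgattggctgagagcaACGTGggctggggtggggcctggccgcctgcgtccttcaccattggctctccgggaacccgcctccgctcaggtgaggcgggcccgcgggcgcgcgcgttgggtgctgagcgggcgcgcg
Txnip, chr3:96557707-96558006, plus strand: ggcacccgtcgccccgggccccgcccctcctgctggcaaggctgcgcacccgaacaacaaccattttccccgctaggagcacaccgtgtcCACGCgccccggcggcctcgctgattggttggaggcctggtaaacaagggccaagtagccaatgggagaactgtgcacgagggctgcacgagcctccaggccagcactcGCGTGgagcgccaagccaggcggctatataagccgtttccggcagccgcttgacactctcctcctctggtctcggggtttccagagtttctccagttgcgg
Slc16a3, chr11:120948817-120949116, plus strand: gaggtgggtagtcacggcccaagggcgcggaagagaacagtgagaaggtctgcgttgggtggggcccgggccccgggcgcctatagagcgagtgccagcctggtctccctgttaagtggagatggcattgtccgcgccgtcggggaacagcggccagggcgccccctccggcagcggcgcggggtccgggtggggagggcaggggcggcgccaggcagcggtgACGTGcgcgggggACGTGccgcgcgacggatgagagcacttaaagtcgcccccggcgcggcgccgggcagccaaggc
Eno1, chr4:150236458-150236757, plus strand: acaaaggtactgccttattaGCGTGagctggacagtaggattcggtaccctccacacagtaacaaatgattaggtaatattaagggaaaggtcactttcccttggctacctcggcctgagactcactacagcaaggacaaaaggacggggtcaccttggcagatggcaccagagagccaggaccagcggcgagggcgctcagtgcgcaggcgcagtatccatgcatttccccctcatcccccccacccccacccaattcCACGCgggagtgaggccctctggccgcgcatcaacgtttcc
Slc16a3 holds 2 copies of ACGTG and none of GCGTG, close together before its start, while Txnip and Eno1 hold 2 copies of GCGTG each and no ACGTG. Hif1a holds ACGTG 3 times, with the palindromic E-box CACGTG counted on each strand. For Eno1 the first of 3 annotated windows is printed. Of the 44 windows annotated to 30 of the members, 36 (81.8%) hold ACGTG or GCGTG on either strand, against 43.8% of all 32851 windows in the table, and 6 (13.6%) hold CACGTG, against 7.15% of all. A letter match is a description of the sequence and not a binding site, and the base composition of the windows was not matched.

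The in vivo comparison asks how cKO and WT Treg differ in the animal. Slc16a3 was the 1 of 31 members called, against 0.374% of all 10415 genes tested. It was at 117.3 and 89.8 FPKM in cKO and 32.6 and 42.7 FPKM in WT libraries, both cKO above both WT (103.5 ± 19.5 against 37.6 ± 7.18 FPKM, SD, n = 2 each). The limma fit put the log2 fold change at 1.44 (SE 0.18, adjusted p = 0.0374). The call was kept when any 1 library was left out, and was lost with no filter on low values (adjusted p = 0.301) and without an intensity trend (adjusted p = 0.0563). Slc16a1 was at 29.7 and 31.7 FPKM in cKO and 27.8 and 27.2 FPKM in WT libraries (0.15, adjusted p = 0.562).

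Ldhb and Pfkfb4 came next in vivo without passing. Ldhb, the lactate dehydrogenase chain that favours pyruvate formation, was at 42.7 and 44.5 FPKM in cKO and 28.1 and 24.3 FPKM in WT libraries (log2 fold change 0.72, SE 0.11, adjusted p = 0.0675). Pfkfb4, one of the enzymes that set the level of fructose 2,6-bisphosphate, was at 4.61 and 4.45 FPKM in cKO and 2.37 and 2.51 FPKM in WT libraries (0.69, SE 0.13, adjusted p = 0.106). Over the 31 members 4 had an unadjusted p under 0.05, against 13.0% of all genes. The cKO libraries lay above the WT libraries for 8 members, against 21.5% of all genes, and below for 7, against 25.8%.

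Each of the other 28 members had an absolute log2 fold change under 0.5, from -0.29 for Pgam1, the phosphoglycerate mutase, to 0.34 for Vegfa, the vascular growth factor. Pgam1 was at 49.7 and 72.1 FPKM in cKO and 73.0 and 74.2 FPKM in WT libraries, lower in cKO without overlap. Vegfa was at 7.96 and 10.9 FPKM in cKO and 7.42 and 6.93 FPKM in WT libraries, higher without overlap. All 6 enzyme genes of lower glycolysis, from Tpi1 to Pkm, were below 0, with a median of -0.17. This direction came from the first cKO library: without it 1 of the 6 was below 0 and the median was 0.033, and without the second it was -0.46. Hif1a was at 117.9 and 123.2 FPKM in cKO and 149.0 and 137.8 FPKM in WT libraries (-0.25, adjusted p = 0.348).

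**Figure D2:**
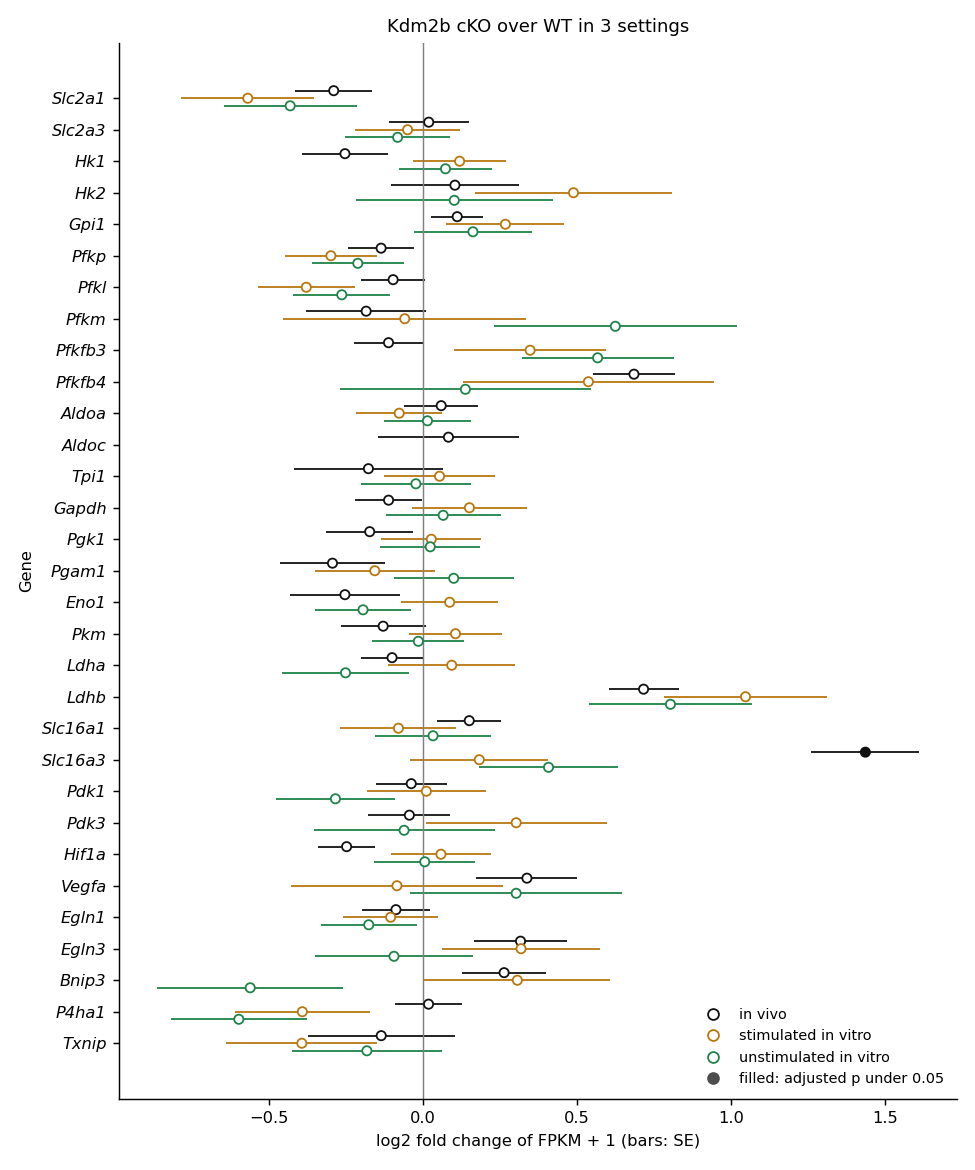
Log2 fold change of FPKM + 1, cKO over WT, for the members in vivo (black, 31 genes) and in stimulated (ochre) and unstimulated (green) culture (30 genes each), with bars giving the SE and filled points an adjusted p under 0.05. Slc16a3 in vivo is the single filled point at 1.44, and Ldhb lies between 0.72 and 1.05 in the 3 settings.

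The cKO libraries in vivo differed from each other across the pathway. The first in table order was lower than the second for 26 of 31 members, with a median difference of -0.25 on the log2 scale, beside 5444 of 10415 genes tested and a median of -0.016. Eno1 was at 178.0 and 265.2 FPKM in these libraries, Txnip at 240.5 and 423.7 FPKM, Tpi1, the triose phosphate isomerase, at 33.5 and 59.6 FPKM, and Pkm at 339 and 450.5 FPKM. The WT libraries lay close together for the same genes, with Eno1 at 257.8 and 260.5 FPKM and Txnip at 344.9 and 356.7 FPKM. The 14 enzyme genes summed to 2185 and 2749 FPKM in cKO and 2626 and 2646 FPKM in WT libraries. Without the second cKO library limma called 11 members, 3 higher and 8 lower in the remaining cKO library, and 1994 of all genes. Without the first it called 3, Slc16a3, Ldhb and Pfkfb4, all higher, and 425 of all genes. In both of these fits a single cKO library is assumed to vary like the WT ones.

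Summed levels of genes that mark other cells were compared in vivo as well. The B cell sums did not overlap between the genotypes and the myeloid sums did. The 10 B cell markers summed to 18.9 and 27.9 FPKM in cKO and 57.6 and 74.3 FPKM in WT libraries, with none at 0. The 10 myeloid markers summed to 25.7 and 45.3 FPKM in cKO and 51.3 and 42.9 FPKM in WT libraries, with S100a8 at 0 in the first cKO library. The part of these cells in the values of the members was not tested.

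The same question was asked of cultured cells. Limma called 0 of 30 members between cKO and WT in stimulated culture, where 0.0187% of all genes were called and 3 members had an unadjusted p under 0.05, against 14.1% of all genes. It called 0 of 30 in unstimulated culture, where 0.0747% of all genes were called and 2 members had an unadjusted p under 0.05, against 6.56%. Without overlap, 5 members lay higher (18.5% of all genes) and 6 lower (29.8%) in stimulated cKO, and 4 higher (17.8%) and 7 lower (16.6%) in unstimulated cKO. Slc16a3, higher in cKO in vivo, had a log2 fold change of 0.18 stimulated (SE 0.22, adjusted p = 0.75) and 0.41 unstimulated (SE 0.22, adjusted p = 0.849). The genotype effect in vivo and in culture was not compared in 1 test, because the tables were normalized separately.

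Ldhb was the member furthest above 0 in both culture conditions. It was at 41.9 and 32.2 FPKM in stimulated cKO and 14.3 and 20.8 FPKM in stimulated WT libraries (log2 fold change 1.05, SE 0.26, adjusted p = 0.171), and at 42.6 and 43.9 FPKM in unstimulated cKO and 30.8 and 19.2 FPKM in unstimulated WT libraries (0.80, SE 0.26, adjusted p = 0.575). Without unstimulated WT replicate 2 its unstimulated value was 0.47, below the 0.62 of Pfkfb3 in the same fit. With the in vivo values, Ldhb (chromosome 6, 142490249 to 142507957) was the only member whose cKO libraries lay above the WT libraries in all 3 settings, which share no library, although it passed the test in none; 2.42% of the 9842 genes tested in both tables did so. The B cell markers summed to 170.7 and 170.5 FPKM in stimulated cKO and 53.6 and 37.8 FPKM in stimulated WT libraries, and to 201.1 and 220.7 FPKM in unstimulated cKO and 37.0 and 37.2 FPKM in unstimulated WT libraries. These sums were thus higher in cKO than in WT in both culture conditions. The myeloid markers were higher in cKO in culture as well, at 102.4 and 48.3 FPKM in stimulated cKO against 12.7 and 10.8 FPKM in stimulated WT and 163.6 and 47.2 FPKM in unstimulated cKO against 12.2 and 12.8 FPKM in unstimulated WT libraries. The 9 erythroid markers in the table summed to 41790 and 6930 FPKM in stimulated cKO against 310.6 and 1693 FPKM in stimulated WT libraries, and to 51220 and 5112 FPKM in unstimulated cKO against 16.8 and 654 FPKM in unstimulated WT libraries. Foxp3 was lower in cKO in culture without overlap, but did not pass. It was at 237.6 and 267.5 FPKM in stimulated cKO and 529.0 and 696.3 FPKM in stimulated WT libraries (log2 fold change -1.26, limma adjusted p = 0.0769). Unstimulated, it was at 71.5 and 82.6 FPKM in cKO and 194.3 and 189.1 FPKM in WT libraries (-1.31, limma adjusted p = 0.0636). In vivo its log2 fold change was 0.12 (limma adjusted p = 0.582). Of the other Treg markers in culture, Ctla4 was lower in cKO as well (-0.51 stimulated and -0.57 unstimulated). Il2ra (0.24 and 0.25), Ikzf2 (0.47 and 0.49) and Cd4 (0.25 and 0.18) lay above 0 in both conditions. Cd3e had -0.28 stimulated and 0.10 unstimulated, and none of these markers passed. The part of the marker and Foxp3 differences in the genotype values was not tested.

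Slc2a1, Pfkl and Pfkp lay lower in cKO without overlap in all 3 settings, 3 of 30 members, against 3.65% of all genes, and passed the test in none. Slc2a1 was at 36.8 and 45.1 FPKM in cKO and 49.3 and 50.7 FPKM in WT libraries in vivo (log2 fold change -0.29, adjusted p = 0.394). In culture it was at 22.5 and 24.2 FPKM in stimulated cKO and 28.8 and 42.7 FPKM in stimulated WT libraries (-0.57, adjusted p = 0.3), and at 16.0 and 16.4 FPKM in unstimulated cKO and 19.6 and 25.3 FPKM in unstimulated WT libraries (-0.43, adjusted p = 0.825). Pfkl and Pfkp, the liver and platelet forms of phosphofructokinase, which commits glucose to glycolysis, had log2 fold changes of -0.097 and -0.14 in vivo, -0.38 and -0.30 stimulated, and -0.26 and -0.21 unstimulated.

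Other members beyond 0.5 on the log2 scale in culture did not pass. In unstimulated cells P4ha1 was at 10.8 and 11.9 FPKM in cKO and 16.5 and 18.9 FPKM in WT libraries (-0.60, adjusted p = 0.653), and Pfkfb3, the isoform with the strongest kinase activity of its family, at 17.5 and 12.2 FPKM in cKO and 9.15 and 9.96 FPKM in WT libraries (0.57, adjusted p = 0.765). P4ha1 was lower and Pfkfb3 higher in cKO without overlap. Pfkm, the muscle phosphofructokinase, was at 3.21 and 3.35 FPKM in unstimulated cKO and 3.19 and 0.839 FPKM in unstimulated WT libraries (0.62, adjusted p = 0.88), and the value was 0.030 without unstimulated WT replicate 2. Bnip3 was at 5.04 and 2.71 FPKM in cKO and 7.17 and 4.96 FPKM in WT libraries (-0.56, adjusted p = 0.842), with overlap. Leaving out 1 library put Bnip3 between -0.91, without unstimulated cKO replicate 1, and -0.21, without unstimulated cKO replicate 2, and Pfkfb3 between 0.32 and 0.81 in the same 2 fits. Pfkfb4 had 0.54 in stimulated cells, a value that fell to -0.093 without stimulated WT replicate 2, where it was at 0.684 FPKM against 3.03 FPKM in stimulated WT replicate 1 and 2.90 and 2.67 FPKM in the stimulated cKO libraries. The median member stood at 0.056 stimulated and -0.0044 unstimulated, beside -0.045 and 0.019 for all genes.

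**Figure D3:**
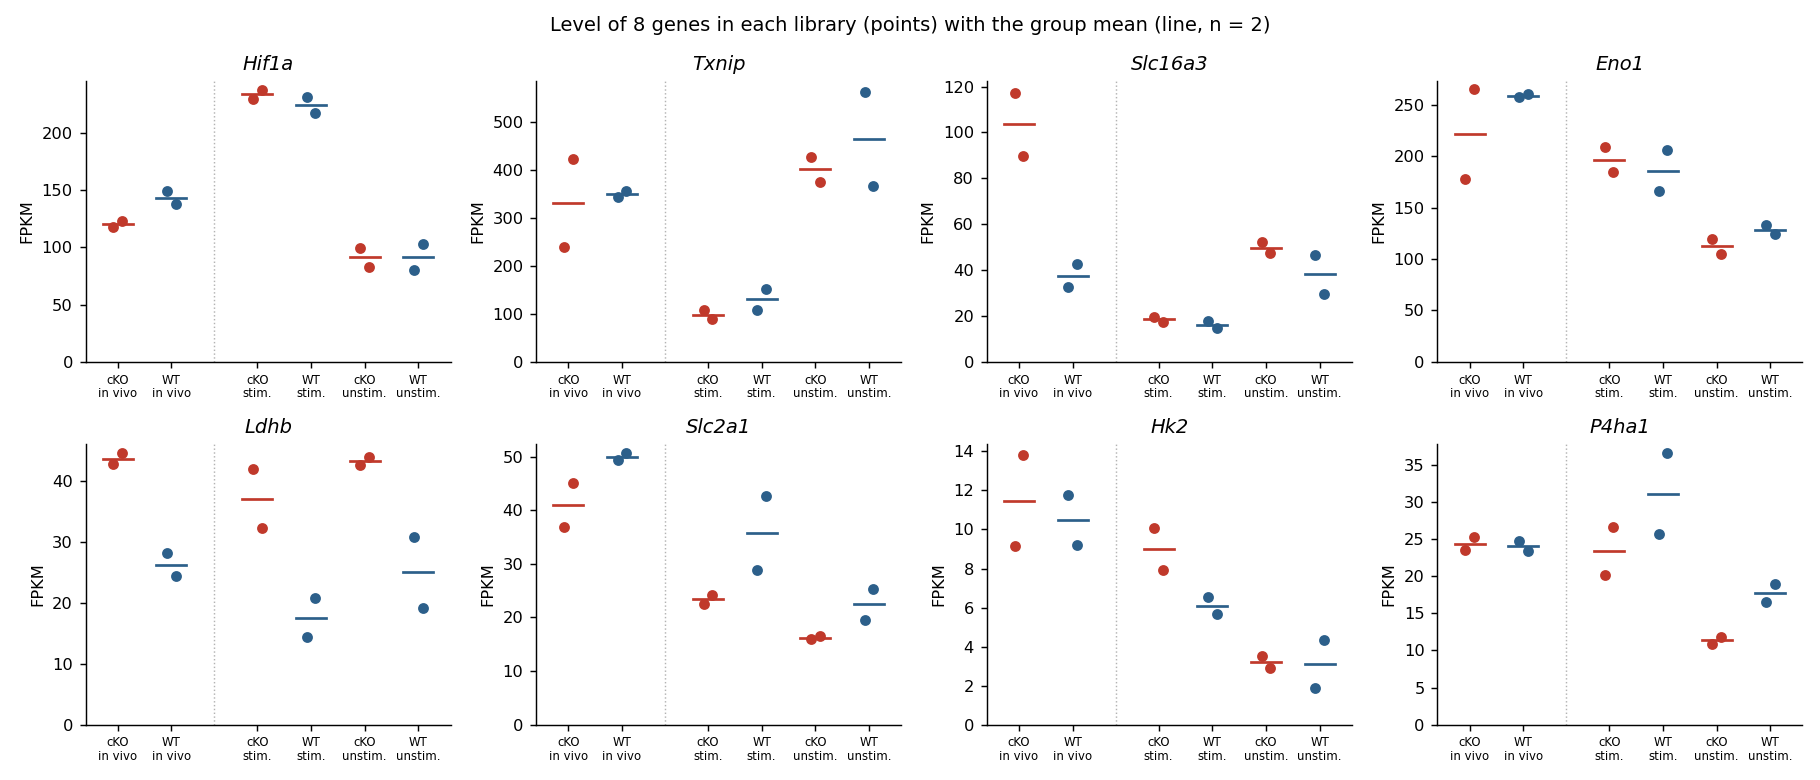
FPKM of 8 members in each library (points, n = 2 a group) with the group mean as a line, cKO in red and WT in blue, in vivo groups left of the dotted line and culture groups right of it. Hif1a stands at 217 to 237 FPKM in the 4 stimulated libraries, Txnip and Slc16a3 are low there, Slc16a3 is highest in the in vivo cKO libraries, and the cKO points of Ldhb lie above the WT points in each setting.

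Genes that encode alternative forms of the same protein showed how the make-up of the pathway varied. Ldhb made up 14.2% and 13.2% of the summed FPKM of Ldha and Ldhb in cKO and 9.0% and 7.34% in WT libraries in vivo, 12.7% and 12.3% in stimulated cKO and 6.02% and 7.45% in stimulated WT libraries, and 14.6% and 18.3% in unstimulated cKO and 9.16% and 7.77% in unstimulated WT libraries. All 6 cKO libraries lay above all 6 WT libraries in this share. This pair was picked with its values known, so no test was run on it.

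Slc16a3 made up 79.8% and 73.9% of the summed FPKM of Slc16a1 and Slc16a3 in cKO and 53.9% and 61.1% in WT libraries in vivo. In culture its share was 49.9% and 46.9% in stimulated and 81.0% and 75.9% in unstimulated cKO libraries, and 49.4% and 38.0% in stimulated and 78.2% and 68.7% in unstimulated WT libraries. MCT4 transcripts thus stood above those of MCT1 in the 4 unstimulated libraries. In the 4 stimulated ones they were level with MCT1 or below it. The 2 were nearly level in stimulated cKO replicate 1 (49.9%) and stimulated WT replicate 1 (49.4%), and the margin was widest in stimulated WT replicate 2.

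Hk2 took 22.7% and 17.8% of the hexokinase pair in stimulated and 8.81% and 8.26% in unstimulated cKO libraries, and 17.2% and 14.4% in stimulated and 5.05% and 12.6% in unstimulated WT libraries, the rest being Hk1. In vivo its share was 25.9% and 29.1% in cKO and 24.2% and 21.1% in WT libraries. Slc2a3 took 30.5% and 32.6% of the glucose transporter pair in stimulated and 48.0% and 49.3% in unstimulated cKO libraries, and 28.9% and 20.0% in stimulated and 44.9% and 39.8% in unstimulated WT libraries. Aldoa took at least 99.0% of the aldolase pair in every library, and Pfkp was the largest of the 3 phosphofructokinase genes, at 52.4% to 66.5%. Egln1 and Egln3 stood nearer to each other, with Egln1 at 48.4% to 63.8% of their sum and below Egln3 in the second cKO library in vivo and in stimulated cKO replicate 1.

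**Figure D4:**
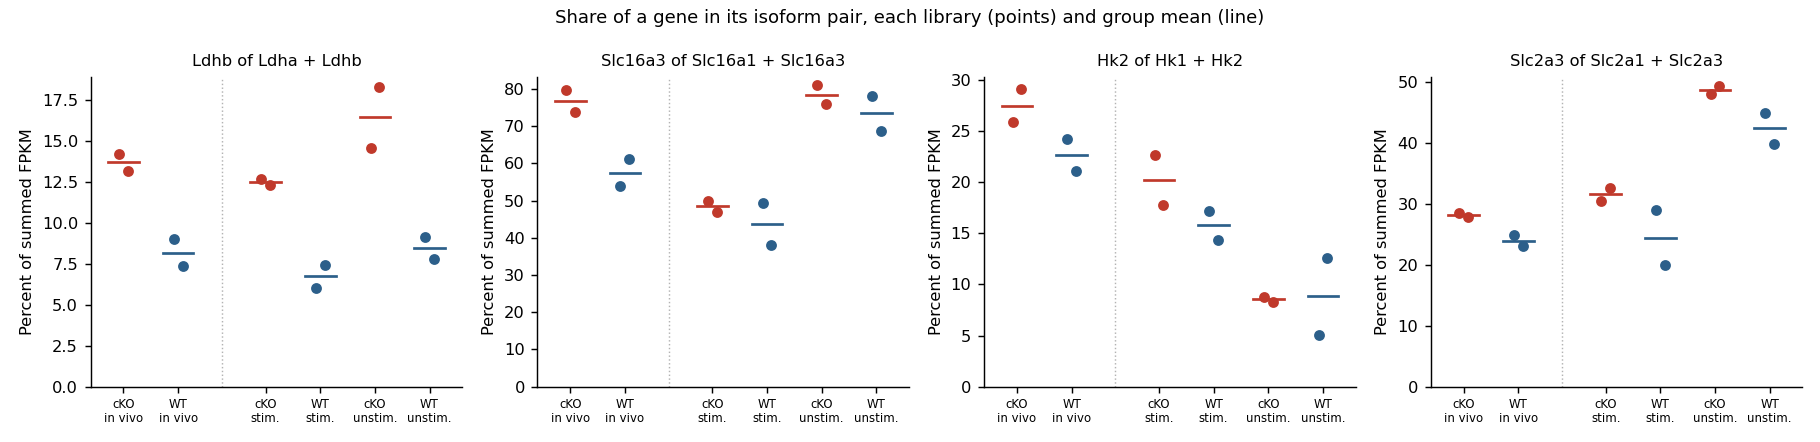
Percent of the summed FPKM of an isoform pair taken by Ldhb, Slc16a3, Hk2 and Slc2a3 in each library (points, n = 2 a group) with the group mean as a line, cKO in red and WT in blue. The share of Ldhb is 12.3% to 18.3% in cKO and 6.02% to 9.16% in WT libraries, and the shares of Slc16a3 and Slc2a3 are lower and that of Hk2 higher in stimulated than in unstimulated cells of each genotype.

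Beyond the members, 76 genes of related steps were read from the same fits: other isoforms, pyruvate dehydrogenase and its regulators, the pentose phosphate pathway, and further genes of oxygen sensing and known hypoxia targets. Of 60 tested in each table, 2 were higher and 0 lower in cKO in vivo, where 0.374% of all genes were called, and limma called 0 between the genotypes in either culture condition. Epas1, which encodes HIF-2 alpha, was at 32.5 and 25.3 FPKM in cKO and 12.3 and 11.9 FPKM in WT libraries in vivo (log2 fold change 1.18, SE 0.14, adjusted p = 0.0374). Eno2, the enolase of neurons, was at 6.09 and 8.51 FPKM in cKO and 2.16 and 2.27 FPKM in WT libraries (1.35, SE 0.17, adjusted p = 0.0434). Both calls were lost with no filter on low values (adjusted p = 0.292 for Epas1 and 0.301 for Eno2), without an intensity trend, and without either WT library.

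In the response to stimulation 3 of the 60 were higher and 3 lower in cKO, where 4.58% of all genes were called, and 2 higher and 1 lower in WT, where 2.43% were. Epas1 fell in both genotypes, opposite to Hif1a, to 7.37 and 7.52 FPKM in stimulated against 23.9 and 19.4 FPKM in unstimulated cKO libraries (log2 fold change -1.42, limma adjusted p = 0.0172), and to 9.80 and 6.56 FPKM in stimulated against 18.6 and 19.2 FPKM in unstimulated WT libraries (-1.14, adjusted p = 0.0422). Ndrg1, a hypoxia-inducible gene, rose in both (1.07 in cKO, adjusted p = 0.0159; 0.91 in WT, adjusted p = 0.029), as did Txnrd1, the reductase of the protein that Txnip binds (0.75 in cKO, adjusted p = 0.0455; 1.49 in WT, adjusted p = 0.00611). Arnt, the beta subunit shared by HIF-1 and HIF-2, rose in cKO (0.78, limma adjusted p = 0.0399). The ubiquitin ligase gene Siah1a (-0.86, limma adjusted p = 0.0269) and Cited2, whose product competes with HIF-1 for its coactivators (-0.73, limma adjusted p = 0.0455), fell there. Many of these calls were lost under other settings. Of 21 alternatives, the call of Epas1 held under 16 in cKO and 7 in WT. That of Ndrg1 held under 17 in cKO and 11 in WT, and that of Txnrd1 under 13 in cKO and 19 in WT. In cKO, Arnt and Siah1a kept theirs under 14 each and Cited2 under 7. The direction of each was kept throughout.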

How the data were processed

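Titles gave each sample its group. The measurements are FPKM that the authors deposited as 2 tables, 1 of the 4 in vivo and 1 of the 8 in vitro samples; 4 other columns of per-sample values match no sample here and were not used. HISAT2 2.2.1 and StringTie 2.1.1 and the builds mm10 and hg19 are named, with no role, per the submitters' processing notes; annotation and filters are not given in the sources used here. In vivo columns carry no replicate number, so first and second there follow table order. Entrez numbers were matched to RefSeq symbols (16196 of 16232). FPKM are not counts, so each table was fitted alone with limma 3.58.1 in R 4.3.3 (log2(FPKM + 1), trended eBayes, two-sided) on genes whose mean reached 1 FPKM, the 8 in vitro samples in 1 model. The fold changes on a log2 scale were computed here from the FPKM the authors deposited. Adjusted p-values are Benjamini-Hochberg over all genes tested. The steps were tested on simulated data drawn independently for each gene and library, so shifts shared by many genes of a library were not covered. Members, lists and tests were chosen with earlier results of these data known. Values per library are given for called members and those furthest from 0 in their role group, and for genes of the related steps when called. Alternatives were a pseudocount of 0.1, no filter, a floor of 5 FPKM, 3 scalings, removal of haemoglobin genes, other eBayes settings, a replicate block, only the 4 samples compared, and leaving out libraries.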

Additional observations from a re-analysis of the deposited data

Results flagged for a closer look

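For 2 members the cKO libraries lay on opposite sides of the WT libraries in vivo and in culture, a difference that was not tested, since the tables were normalized separately. Pfkfb3 was lower in both cKO libraries in vivo (log2 fold change -0.11) and higher in both unstimulated ones (0.57). Hk1 was lower in both cKO libraries in vivo (-0.25) and higher in both stimulated ones (0.12). None of these 4 values passed the test. Of the 9842 genes tested in both tables, 12.6% had libraries without overlap in opposite directions in vivo and in either culture condition, against these 2 of 30 members.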

How the results depend on the processing

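The count of members called between cKO and WT in vivo was 1 in the fit reported, 0 when genes of low values were kept, 0 with eBayes without trend, and ranged from 1 to 11 when 1 library was left out. In the WT response, 3 members were called in the fit reported, 1 with no filter, 0 without both cKO libraries numbered 1 and 0 with only the 4 samples compared, and 2 to 6 without 1 library. In the cKO response, 4 were called, 2 with no filter, 7 without both WT libraries numbered 2, 0 without both cKO libraries numbered 1, 7 with only the 4 samples compared, and 0 to 5 without 1 library. The cause of these changes was not tested. In stimulated culture, unstimulated culture and the interaction, 0 members were called under every alternative. Over all genes, counts without 1 library ranged from 17 to 1994 in vivo (39 with all), 95 to 966 in the WT response (260) and 12 to 660 in the cKO response (490), from 0 to 197 between the genotypes stimulated (2) and from 0 to 28 unstimulated (8). With no filter they were 0 in vivo, 92 and 185 in the WT and cKO responses and 0 and 1 between the genotypes stimulated and unstimulated, and with only the 4 samples compared 34 and 1918 in the responses. Of the single-gene values recomputed, 597 kept direction and status, whether called or not called, and 22 gained a call. Most of the 597 were not called in the fit reported and so had no call to lose. The 40 that lost a call all came from called members. Among them, Slc16a3 in the WT response lost it under 11 of 21 alternatives, Eno1 in the cKO response under 7 and Hif1a in the WT response under 2. The 2 reversals were of Pfkfb4 between cKO and WT in stimulated culture. Its value was -0.093 without stimulated WT replicate 2, against 1.17 without stimulated WT replicate 1, and -0.093 without both WT libraries numbered 2. With the replicate number as a block, 3 members were called in the WT and 5 in the cKO response, P4ha1 being added, and 0 in each other in vitro comparison. Deviations of same-numbered libraries correlated at 0.42 between the cKO groups and 0.239 between the WT groups, and at -0.138 to 0.0577 across genotypes. The number was thus not used in the fit reported as a block shared by both genotypes. Stimulated and unstimulated libraries may be paired within a genotype. A block within each genotype was not fitted, so the tests of the response leave such a pairing out. Depth is unknown, which limits the members of few FPKM most, such as Aldoc.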
